A study of Bos taurus with 12 samples.

Results

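The genes described here are 10 immediate early genes of the bovine endometrium, the inner lining of the uterus: FOS, JUN, EGR1, ATF3, NR4A2, IER2, IER3, DUSP1, SOCS3 and CCN1. They were fixed by name, and a probe was taken as a member when the gene name, accession or gene ID in the scanner files gave one of these symbols. All 10 had a probe, 1 each, among 6686 named genes on the array, and each probe was well above background on 12 of 12 arrays. The tissue came from Japanese-Black cows by biopsy at cycle day 15, in summer (the start of September) and in autumn (the middle of November), over 2 years in succession. In each season the uterine horn beside the ovary that carries the corpus luteum, its progesterone-secreting body (CL side), and the opposite horn (non-CL side) were sampled, which gave 4 groups of 3 arrays. All cows were of 1 breed and at 1 cycle day, the labels give no age, and no agent or genotype is named. The labels number the samples of each group from 1 to 3 without saying that these are separate animals, so p-values measure only the spread between these samples, and in such bulk tissue fewer cells of a type and less RNA per cell cannot be told apart.

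Immediate early genes are transcribed soon after a cell receives a stimulus, before new protein has to be made, and their transcripts are short-lived. FOS and JUN form the transcription factor AP-1, and EGR1, ATF3 and NR4A2 are further transcription factors of this first wave. DUSP1 and SOCS3 feed back on the kinases and cytokine receptors that start it, and CCN1 is secreted into the matrix. Growth factors, hormones, cytokines, stretch, wounding and tissue handling are all known to induce genes of this class.

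Because every value below rests on 1 probe per gene, 30 bases of each 60-base probe are shown, 5′ to 3′ as the scanner files give them.
FOS: cttccctcgagggttcccatagacctaggg
JUN: tatcaccaccacgccgacccctacccagtt
EGR1: ccccgactatctgtttccacaacagcaggg
ATF3: tctctggctactatctgtttaaattctgac
NR4A2: caaaggcttgtaaATTTAtccaatgcagtt
IER2: agaatcgccagataggaaAATAAAgaccaa
IER3: tctatgaacacaAATAAActtgatttactg
DUSP1: tgtaaatatatcctaagcacggtttgtttt
SOCS3: aagaccgtcaacggccacctggactcctac
CCN1: ctgaatgtttttATTTAtcaaaatgtagct
Capitals mark 2 motifs searched in the whole probes, the polyadenylation signal AATAAA and the AU-rich pentamer ATTTA known from unstable transcripts. AATAAA was present in the probes of IER2 and IER3, and in 11.3% of all 15208 probes. ATTTA was present in the probes of NR4A2, CCN1 and IER3, where it stands in lower case apart from the AATAAA, and in 8.23% of all probes. On the other strand AATAAA was present in 1 member probe and 4.14% of all probes, and ATTTA in 3 member probes and 11.3% of all probes. These matches describe the letters of the probes, and no genomic position is given because no genome assembly was used here.

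Levels are log2 of a probe's processed signal over the 75th percentile of its own array, so a level of 0 is a signal equal to that percentile, and levels are compared between arrays for 1 probe at a time. CL-side summer number 2 was dim, with a 75th percentile of 2007 where the other 11 arrays had 3516 to 4418. Its correlation with those 11 had a median of 0.928, and they correlated among themselves at 0.972 to 0.993. Of all probes, 79.2% to 84.1% were well above background on each array. Slide 1 held 8 arrays, all 6 from summer and both horns of autumn number 1, and slide 2 held the 4 arrays of autumn numbers 2 and 3. Same-numbered horns of a season lay at neighbouring positions on a slide in all 6 pairs. Groups are given in the order of their numbers 1, 2 and 3.

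FOS, the AP-1 subunit, stood at 0.31, 1.96 and 2.61 on the CL side and at −2.91, 1.70 and 2.52 on the non-CL side in summer. In autumn FOS stood at −0.17, 0.97 and −1.95 on the CL side and at −3.14, −3.80 and 1.10 on the non-CL side. The highest and lowest array differed by 6.41 on the log2 scale, an 84.9-fold difference in signal and the widest range of the 10 genes. Each group spread over more than 1 log2 unit (SD 1.18 to 2.93, n = 3), and all 4 groups overlapped. JUN, its partner in AP-1, stood at −2.22, 0.12 and 0.13 on the CL side and at −2.53, 0.08 and 0.19 on the non-CL side in summer. JUN stood at −1.21, −0.08 and −1.14 on the CL side and at −2.15, −0.62 and −0.58 on the non-CL side in autumn. Both summer horns numbered 1 were low and the 4 other summer horns lay within 0.08 to 0.19, so for JUN the number separated the summer arrays and the season did not separate the groups.

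EGR1, a zinc-finger factor of the growth factor response, was dim, at processed signals of 40.1 to 146 units. Its levels were −5.95, −4.79 and −4.80 on the CL side and −6.14, −5.18 and −4.70 on the non-CL side in summer. Its autumn levels were −6.76, −5.75 and −5.96 on the CL side and −6.26, −5.78 and −5.65 on the non-CL side. Summer numbers 2 and 3 were above every autumn array in both horns, and both summer number 1 horns lay among the autumn values. ATF3, a stress-induced factor that can pair with JUN, stood at −0.92, 3.29 and 1.92 on the CL side and at −2.44, 1.09 and 2.03 on the non-CL side in summer. In autumn ATF3 stood at −1.31, −1.21 and −2.20 on the CL side and at −1.38, −2.59 and −0.72 on the non-CL side. On the CL side the lowest summer array was still above the highest autumn array, whereas on the non-CL side summer number 1 was below 2 of the 3 autumn arrays. NR4A2, an orphan nuclear receptor, stood at 0.44, 3.65 and 2.29 on the CL side and at 0.13, 1.80 and 2.87 on the non-CL side in summer. Its 6 autumn levels were close together, at 0.10, 0.21 and −0.08 on the CL side and at 0.23, −0.19 and 0.86 on the non-CL side. The CL-side seasons did not overlap, and on the non-CL side summer number 1 lay inside the autumn range.

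IER2, a nuclear protein of the early response, stood at 2.85, 3.79 and 4.11 on the CL side and at 1.98, 3.51 and 4.06 on the non-CL side in summer. In autumn IER2 stood at 2.38, 2.50 and 1.70 on the CL side and at 1.95, 1.70 and 2.96 on the non-CL side. Summer lay above autumn without overlap on the CL side, and on the non-CL side summer number 1 fell within the autumn range. IER3, a stress-induced regulator of cell survival, stood at 2.70, 3.72 and 2.72 on the CL side and at 2.02, 2.94 and 3.08 on the non-CL side in summer. Its autumn levels were 2.17, 2.22 and 1.66 on the CL side and 2.24, 2.40 and 2.13 on the non-CL side. IER3 had the narrowest range of the 10 genes, 2.06 on the log2 scale or 4.17-fold, and its CL-side seasons did not overlap.

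DUSP1, the phosphatase that switches off MAP kinases, stood at 1.71, 3.10 and 3.0 on the CL side and at 0.90, 2.40 and 3.28 on the non-CL side in summer. DUSP1 stood at 1.70, 1.61 and 1.07 on the CL side and at 0.91, 0.55 and 1.65 on the non-CL side in autumn. On the CL side summer number 1 exceeded autumn number 1 by a margin that shows only in the second decimal, so the absence of overlap there is narrow. SOCS3, the inhibitor of JAK and STAT signalling, was dim, at processed signals of 38.6 to 102 units. Its summer levels were −6.33, −4.45 and −5.32 on the CL side and −6.34, −5.69 and −5.36 on the non-CL side. Its autumn levels were −6.57, −6.19 and −6.68 on the CL side and −6.03, −6.32 and −5.65 on the non-CL side. CL-side summer number 2, the dim array, was the highest of all, and the 4 groups overlapped. In the authors' deposited table SOCS3 on the CL side stood at −5.32, −3.89 and −4.79 in summer and −4.10, −5.27 and −4.78 in autumn, and EGR1 at −5.18, −4.02 and −4.48 in summer and −4.05, −5.12 and −4.67 in autumn. There the autumn number 1 array was among the highest for both of these dim genes, whereas on the scale used here it was the lowest of all 12 for EGR1.

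CCN1, a secreted matricellular protein that binds integrins, stood at −0.41, 3.16 and 2.87 on the CL side and at −1.13, 2.39 and 2.76 on the non-CL side in summer. In autumn CCN1 stood at 0.89, 0.40 and −1.06 on the CL side and at −1.26, −1.46 and 0.21 on the non-CL side. Summer numbers 2 and 3 of both horns were above all other arrays, and both horns of summer number 1 lay within the autumn range. The group means came in the same order at the top for all 10 genes, CL-side summer first and non-CL-side summer next, and the autumn groups below them. The share of all probes with this order was not computed. The order of the summer groups rested on single arrays. It held in 2 of 10 genes without non-CL-side summer number 1 and in 5 of 10 without CL-side summer number 2. Of the autumn means, the CL side was higher for 4 genes (FOS, JUN, DUSP1 and CCN1) and the non-CL side for 6, and no difference between neighbouring groups passed the adjusted test described below.

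**Figure D1:**
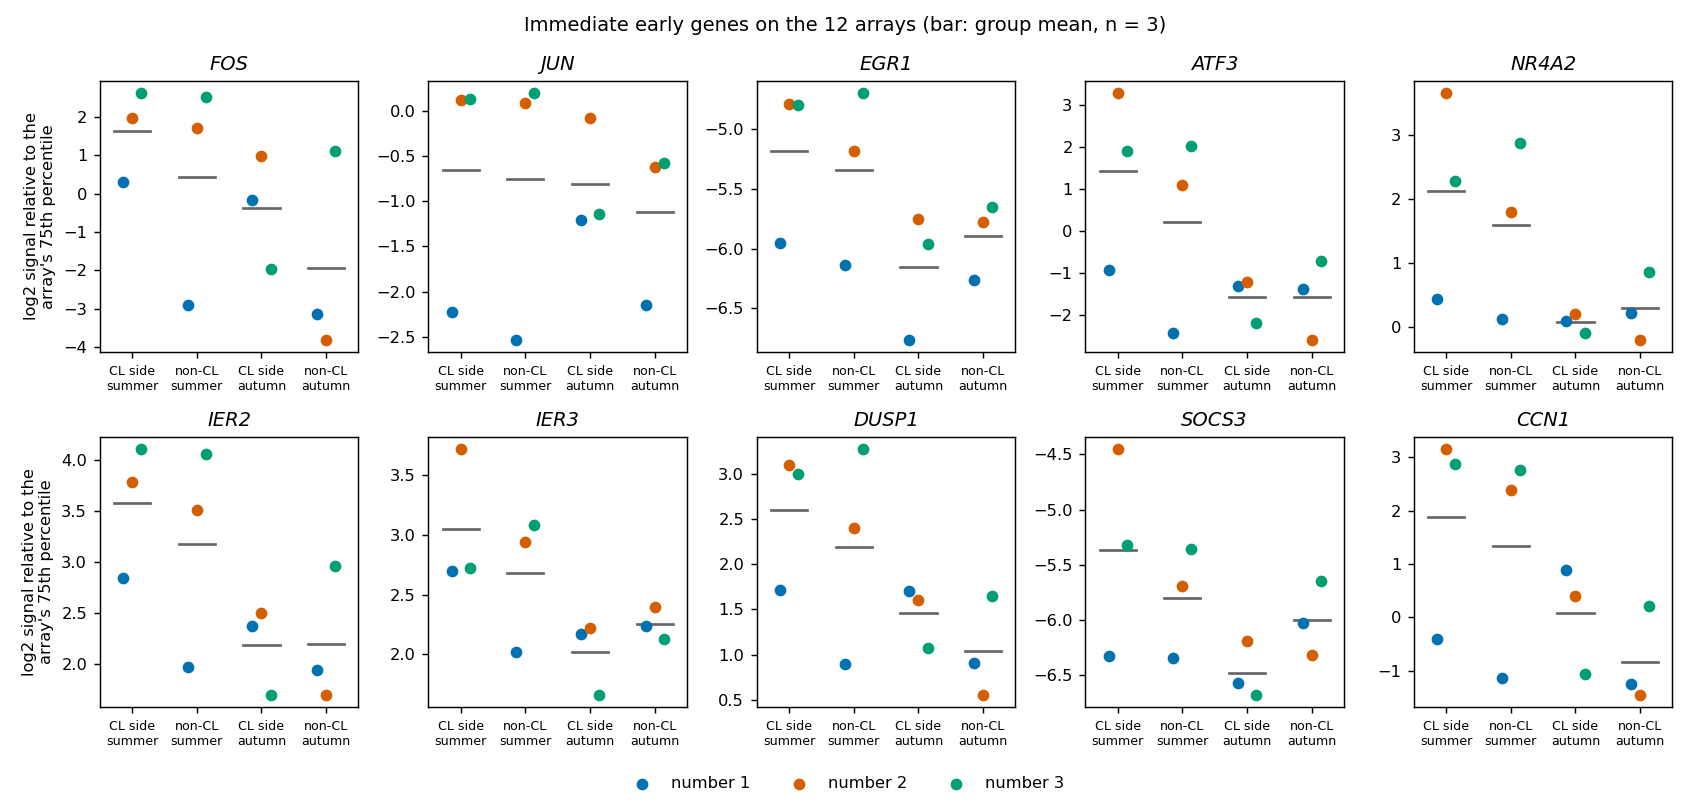
Level of each immediate early gene on the 12 arrays (vertical axis, log2 of the processed signal relative to the array's 75th percentile, own scale per gene) by group (horizontal axis), with points coloured by the number in the labels and bars at the mean of n = 3. Summer numbers 2 and 3 stand above most autumn points, and summer number 1 is the lowest summer array of its horn in 10 of 10 genes on both sides.

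The 10 genes marked out the same arrays. Of the 4 highest arrays of each gene, CL-side summer numbers 2 and 3 and non-CL-side summer number 3 were among them in 10 of 10 genes and non-CL-side summer number 2 in 9 of 10. The remaining place went to non-CL-side autumn number 3, for SOCS3. Non-CL-side summer number 1 was among the 4 lowest arrays in 10 of 10 genes, CL-side autumn number 3 in 9, non-CL-side autumn number 1 in 7, non-CL-side autumn number 2 in 6, CL-side autumn number 1 in 5 and CL-side summer number 1 in 2. Averaged over the 10 genes, the deviation from a gene's 12-array mean was −0.37, 1.76 and 1.36 on the CL side and −1.24, 0.91 and 1.48 on the non-CL side in summer. In autumn the mean deviation was −0.47, −0.13 and −1.06 on the CL side and −1.08, −1.20 and 0.04 on the non-CL side. The 4 arrays of summer numbers 2 and 3 were thus high in both horns, and the lowest array of all came from summer as well. FOS departed most from the rest in autumn, with a deviation of 1.04 on CL-side number 2 and of −3.73 in the other horn of that number.

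**Figure D2:**
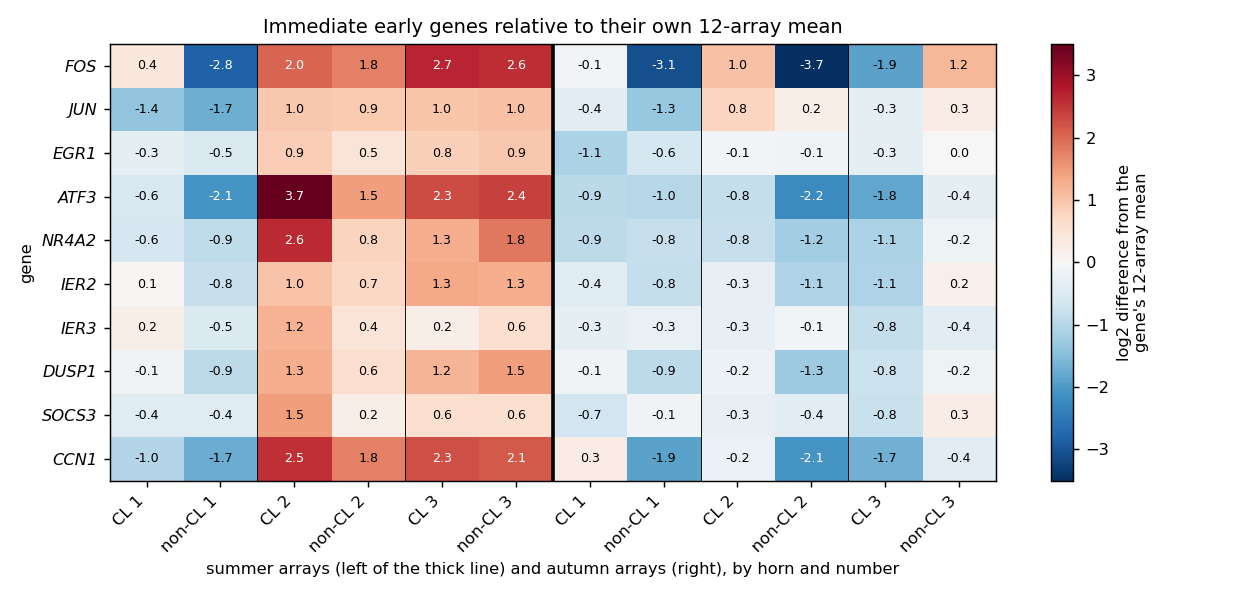
Deviation of each immediate early gene (rows) from its own 12-array mean on each array (columns), in log2 units printed in the cells and shown by colour (red above the mean, blue below), with same-numbered horns side by side. The 4 columns of summer numbers 2 and 3 are positive in all 10 rows, and the non-CL-side summer number 1 column is negative in all 10.

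Whether the genes differed between the seasons was asked for each horn. On the CL side all 10 genes had higher means in summer, as had 53.0% of all probes, with changes of 0.15 to 3.01 and a median of 1.27 on the log2 scale against a median of 0.02 over all probes tested. ATF3 had the largest change, 3.01 ± 1.21 (SE; 1.43 ± 2.15 in summer and −1.57 ± 0.55 in autumn, SD, n = 3), FOS had 2.01 ± 1.57, EGR1 0.98 ± 0.43 and JUN the smallest, 0.15 ± 0.84. None of the 10 passed limma's test with Benjamini-Hochberg adjustment over all probes (adjusted p = 0.496 to 0.964), where 0.0% of 12381 probes passed. At an unadjusted limma p under 0.05, 6 of the 10 were found (EGR1, ATF3, NR4A2, IER2, IER3 and SOCS3), against 9.92% of all probes. Of these, EGR1 and SOCS3 are dim, and their changes of 0.98 and 1.11 depended on the treatment of low signals. They were 0.60 and 0.68 with another background correction (normexp) and 0.06 and 0.05 in the authors' deposited table. In 5 of the 10 (ATF3, NR4A2, IER2, IER3 and DUSP1) every summer array was above every autumn array, against 8.05% of all probes. The 10 genes varied together over the arrays (median r 0.84). Counts of these genes, here and below, are therefore not 10 separate observations, and their distance from the share of all probes was not tested. The count of 6 became 1 without CL-side summer number 2 (5.48% of all probes in that fit), CL-side summer number 3 (16.8%) or CL-side autumn number 3 (9.39%). It was 2 without CL-side autumn number 1 (7.37%) and 8 without CL-side summer number 1 (13.7%).

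On the non-CL side all 10 genes again had higher summer means, as had 49.9% of all probes, with changes of 0.20 (SOCS3) to 2.39 (FOS) and a median of 1.07 against a median over all probes that was 0.00 when rounded. FOS had 2.39 ± 1.57 and ATF3 1.79 ± 1.21 (SE). None of the 10 passed limma's adjusted test (adjusted p = 1.0 for each), where 0.0% of probes passed, and none had an unadjusted limma p under 0.05, against 1.12% of all probes. None separated the seasons without overlap, against 2.75% of all probes that were higher without overlap. Without non-CL-side summer number 1 the median was 1.69 and 8 of the 10 had an unadjusted limma p under 0.05 (2.47% of all probes in that fit). Without non-CL-side summer number 3 the median was 0.58, with 8 of 10 above 0, none with an unadjusted limma p under 0.05 (0.977% of all probes) and ATF3 at 0.88. There were 3 genes with such a p without non-CL-side autumn number 3 (2.97%) and 1 without CL-side summer number 1 (1.15%), whose removal changes only the shared estimate of the spread.

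Averaging the 2 same-numbered horns of a season first, so that each number counted once, gave 3 means per season. All 10 changes were above 0, as were 52.7% of all probes (0.26 to 2.40, median 1.17, against 0.01 over all probes), with ATF3 at 2.40 ± 1.0, FOS at 2.20 ± 0.98, CCN1 at 1.99 ± 0.94, NR4A2 at 1.67 ± 0.64 and IER2 at 1.19 ± 0.41 (SE). None passed limma's adjusted test (adjusted p = 0.895 to 0.972), where 0.0% of 12391 probes passed. NR4A2, IER2, IER3 and DUSP1, 4 of the 10, had an unadjusted limma p under 0.05, against 4.02% of all probes. IER2 and IER3 had every summer mean above every autumn mean, against 5.51% of all probes. For ATF3, the horn means were −1.68, 2.19 and 1.97 in summer and −1.34, −1.90 and −1.46 in autumn, so the number 1 mean of summer lay inside the autumn range and the other summer means were more than 3 log2 units above it. The count of 4 was 0 without CL-side summer number 1 (3.16% of all probes in that fit) and 1 without CL-side autumn number 3 (2.62%). It was 7 without CL-side autumn number 1 (3.4%), non-CL-side summer number 1 (5.17%) or non-CL-side autumn number 3 (6.86%). CCN1 had the same shape as ATF3, at −0.77, 2.77 and 2.82 in summer and −0.18, −0.53 and −0.43 in autumn.

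The season change over both horns depended on which summer number was kept. Without both horns of summer number 1 the median was 1.68, all 10 genes had an unadjusted limma p under 0.05 (7.5% of all probes did), and ATF3 (3.65 ± 0.22, adjusted p = 0.036) and CCN1 (3.17 ± 0.16, adjusted p = 0.032) were the 2 probes of the whole array that passed the adjusted test. Summer number 1 was the lowest summer array of its horn in all 10 genes, and this fit was added after seeing the data. Its small SE and p-values follow in part from that choice and are no test of the season. Without both horns of summer number 2 the median was 1.01 and without those of summer number 3 it was 0.81, with 9 of 10 above 0 and no unadjusted p under 0.05 in either (2.56% and 5.93% of all probes). JUN was the gene below 0 in both, at −0.14 and −0.17. Leaving out both horns of an autumn number gave medians of 1.10 to 1.23. In those fits 0, 1 and 1 genes had an unadjusted p under 0.05 without numbers 1, 2 and 3, against 2.07%, 1.69% and 5.64% of all probes. With the replicate number fitted as a block, the genes with an unadjusted limma p under 0.05 were 6 on the CL side, 1 on the non-CL side and 7 over both horns in place of 4, and no probe passed the adjusted test. Under that block the shares of all probes were higher too, at 12.9%, 1.97% and 5.69%.

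Slide and season overlapped, since all summer arrays lay on slide 1. With slide as a block the medians over the 10 genes were 1.44 on the CL side, 1.09 on the non-CL side and 1.24 over both horns, with all 10 above 0 in each, and JUN and EGR1 had 0.98 and 1.25 over both horns in place of 0.26 and 0.77. On slide 1 alone, where autumn has number 1 only, the medians were 1.20, 1.32 and 1.24, with all 10 above 0. Over both horns this is the same estimate as with slide as a block, because slide 2 held no summer array. That estimate sets summer against the horns of autumn number 1 alone, so the fits are not separate checks. With slide as a block 1 of the 10 had an unadjusted limma p under 0.05 on the CL side, near the 10.8% of all probes, and none on the non-CL side (4.55%) or over both horns (4.8%). On slide 1 alone none did, against 5.72%, 4.03% and 3.78% of all probes. In the authors' deposited table, refitted with limma, EGR1 and SOCS3 had CL-side changes of 0.06 and 0.05.

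**Figure D3:**
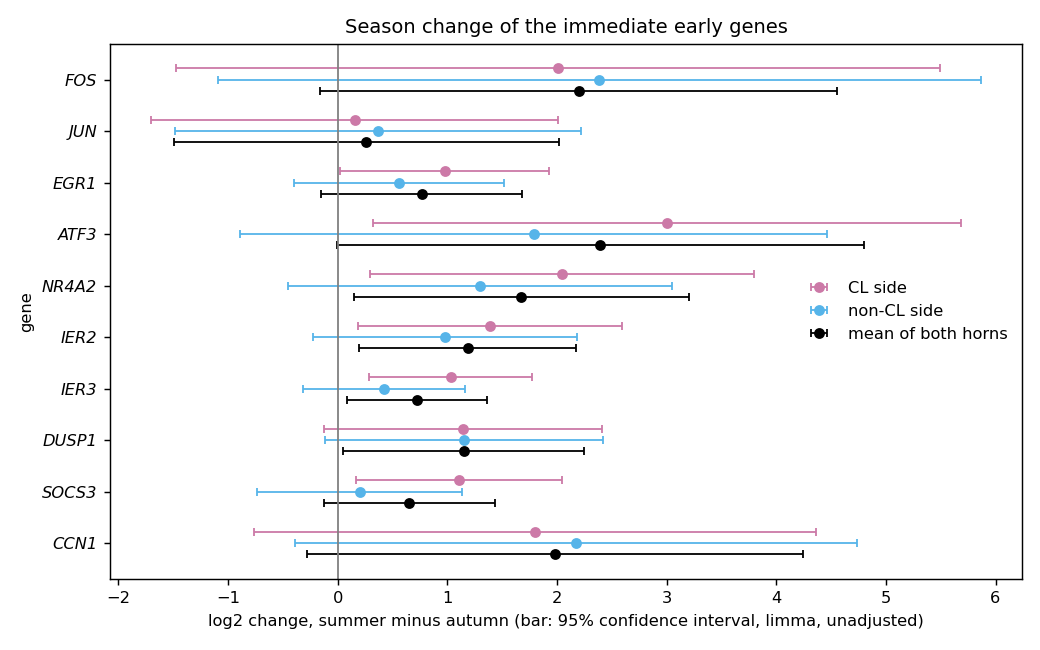
Season change of each immediate early gene (rows), summer minus autumn in log2 units (horizontal axis), on the CL side, on the non-CL side and for the mean of both horns; points are limma estimates and bars their unadjusted 95% confidence intervals. All 30 points lie above 0, and the intervals lie wholly above 0 for 6 genes on the CL side, none on the non-CL side and 4 for both horns.

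The horns were compared within each season, with the same CL-side arrays that enter the season comparison. In summer all 10 genes, and 48.9% of all probes, were higher on the CL side, by 0.10 (JUN) to 1.21 (ATF3) with a median of 0.42, against −0.01 over all probes. None passed limma's adjusted test (adjusted p = 0.984 to 0.995), where 0.0% passed, and none had an unadjusted p under 0.05, against 1.41% of all probes. The direction rested on single arrays: without CL-side summer number 2, 5 of 10 were above 0 with a median of 0.0012, and without non-CL-side summer number 1, 2 of 10 were above 0 with a median of −0.22, while without CL-side summer number 1 or non-CL-side summer number 3 all 10 were above 0 with medians of 0.90 and 0.89. In autumn 4 of 10, and 42.6% of all probes, were higher on the CL side (FOS by 1.56, CCN1 by 0.91, DUSP1 by 0.42 and JUN by 0.31), the median was −0.01, and none had an unadjusted limma p under 0.05, against 1.86% of all probes (adjusted p = 1.0 for each, where 0.0% passed). On slide 1 alone the autumn median was 0.25 and on slide 2 alone −0.10, and with 1 autumn array left out it lay between −0.18 (without number 2 of either horn) and 0.39 (without non-CL-side number 3). The season change on the CL side minus that on the non-CL side was above 0 in 6 of 10 genes and in 53.9% of all probes, with a median of 0.41. It ranged from −0.38 (CCN1) to 1.22 (ATF3), and none passed limma's interaction test (adjusted p = 0.999 for each, where 0.0% passed) or had an unadjusted p under 0.05, against 1.88% of all probes. That median lay between −0.16 and 0.77 with 1 array left out, and was −0.16, with 4 of 10 above 0, without non-CL-side summer number 1 and 0.11 without CL-side summer number 2.

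Same-numbered horns resembled each other for these genes in summer. For each gene, the mean distance between the CL-side and non-CL-side horn of the same number was set against the mean distance between horns of different number. In summer the same-numbered horns were closer for 10 of 10 genes, against 70.8% of all 12272 probes measured on every array, and at under 50% of the distance for 8 of 10, against 18.2%. The median distance was 0.56 for the same number and 1.46 for different numbers, against 0.28 and 0.37 over all probes. JUN had the largest contrast, with horns of the same number 0.31, 0.04 and 0.06 apart and horns of different number 1.69 apart on average. That contrast came from number 1, low in both horns, since the JUN levels of numbers 2 and 3 all lay at 0.08 to 0.19. CL-side number 2, the dim array, was nearer to non-CL-side number 3 than to number 2 for EGR1, ATF3, NR4A2, IER3, DUSP1, SOCS3 and CCN1. It was nearer to its own number for FOS and JUN, and about as near to both for IER2. CCN1 followed, with 0.71, 0.77 and 0.10 for the same number and 2.52 for different numbers, whereas IER3 differed little, at 0.61 and 0.65 on average.

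In autumn the same-numbered horns were closer for 3 of 10 genes (JUN, EGR1 and IER3), against 55.6% of all probes, and at under 50% of the distance for 0 of 10, against 13.8%. The median distance was 0.74 for the same number and 0.50 for different numbers, against 0.26 and 0.30 over all probes. FOS differed by 2.97, 4.78 and 3.05 between the horns of autumn numbers 1, 2 and 3, but by 2.03 on average between horns of different number. By pair, the CL-side horn was the higher in 10 of 10 genes for summer number 1 (median difference 0.70) and summer number 2 (0.74), in 4 of 10 for summer number 3 (−0.08), in 6 of 10 for autumn number 1 (0.25), in 9 of 10 for autumn number 2 (0.67) and in 0 of 10 for autumn number 3 (−0.98). The difference between the horns thus had 1 direction in at least 9 of the 10 genes for summer numbers 1 and 2 and autumn numbers 2 and 3. It was mixed for summer number 3 and autumn number 1, and its direction was not the same for the 3 autumn numbers. The share of all probes was not computed for single pairs, and the pair of summer number 2 includes the dim array, so these counts have no background to be read against. The same number, neighbouring positions on the slide and any shared handling go together in these samples and cannot be told apart.

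**Figure D4:**
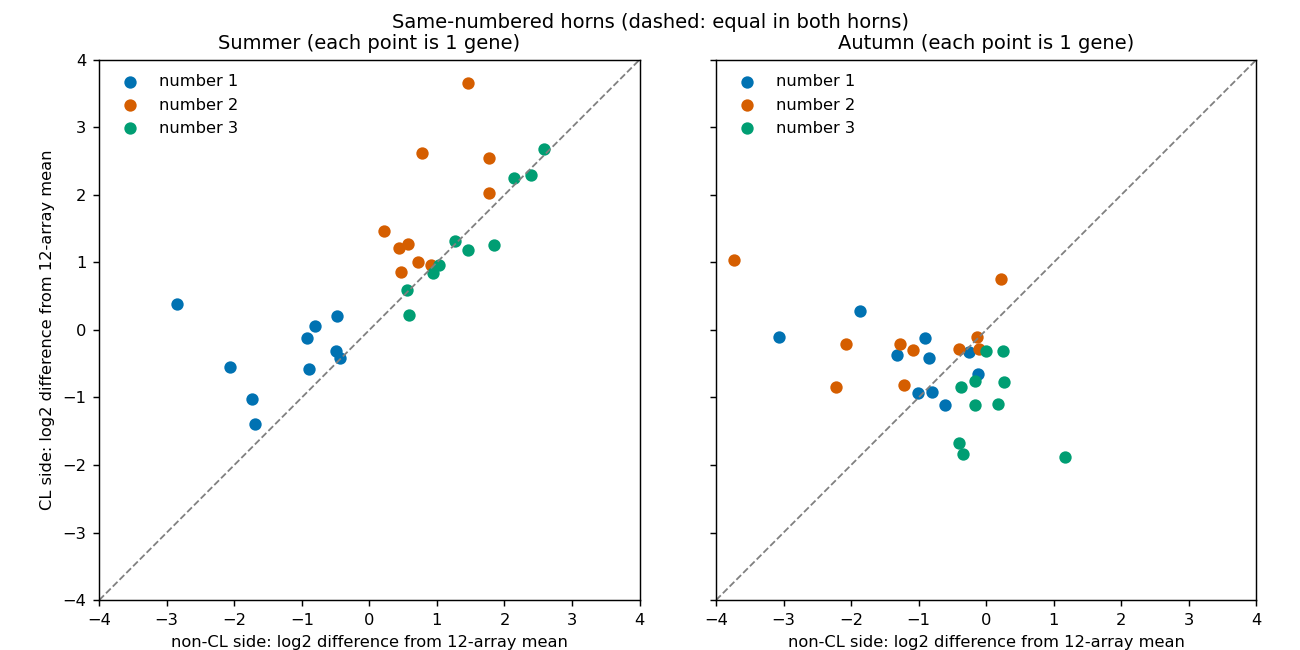
Deviation from the 12-array mean in the CL-side horn (vertical axis) against the non-CL-side horn of the same number (horizontal axis), log2 units, 1 point per immediate early gene and number, summer at left and autumn at right, with the dashed line where both horns are equal. Summer points run along the line, number 3 closest to it, whereas autumn numbers 2 and 3 lie on opposite sides of it, with a median CL-side minus non-CL-side difference of 0.67 and −0.98.

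The 10 genes varied together over the arrays, more closely in summer than in autumn. Over the 6 horn means, the 45 pairs of genes had Pearson r of 0.59 to 0.996 with a median of 0.91, and Spearman rho of 0.43 to 0.94 with a median of 0.71. ATF3 and NR4A2 were the closest pair (r = 0.996, exact permutation p = 0.011; rho = 0.83, exact permutation p = 0.058; two-sided over all 720 orders), and JUN and IER3 the least close. After Benjamini-Hochberg adjustment over the 45 pairs no r and no rho passed (0.067 and 0.19 for ATF3 and NR4A2). Leaving out the 2 horn means farthest from the median of the first gene brought the median r to 0.29, with 15 of 45 pairs below 0. Dropping the extreme means of a gene narrows its range and leaves few means, so this fall cannot show what the relation rests on. The means left out differed by gene, and the pairs with JUN as first gene rose, as JUN and IER3 did from 0.59 to 0.93. As a description without a test, the median r was 0.84 over the 12 arrays, 0.93 over the 6 summer arrays, which lay on 1 slide and fall into a low number 1 and high numbers 2 and 3, and 0.41 over the 6 autumn arrays, with 5 pairs below 0. In autumn DUSP1 and CCN1 were the closest pair (r = 0.96), and EGR1 and CCN1 the farthest apart (r = −0.29). Against the mean of the 9 other genes over the 12 arrays, DUSP1 (0.98), ATF3 (0.97), IER2 (0.97) and CCN1 (0.96) were the closest to the common course and JUN the least close (0.73).

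Of 5230 other named genes that were well above background on all 12 arrays, 46 had an r above 0.8 with the mean course of the 10 genes over the 12 arrays, which share slides and horn pairs. The 8 most alike were FOSB (r = 0.944), an AP-1 subunit, SERTAD1 (0.939), SLC25A25 (0.930), a mitochondrial carrier, TCIM (0.927), CXCL3 (0.927), a chemokine of neutrophils, ZFP36 (0.920), which promotes decay of AU-rich transcripts, NR4A1 (0.920), a nuclear receptor related to NR4A2, and ZNF750 (0.897), an epithelial differentiation factor. FOSB stood at 0.81, 4.35 and 4.96 on the CL side and at −1.37, 3.38 and 4.91 on the non-CL side in summer. In autumn FOSB stood at 0.65, 1.80 and 0.65 on the CL side and at −0.96, 0.58 and 3.15 on the non-CL side. As in FOS, summer numbers 2 and 3 were high in both horns, non-CL-side summer number 1 was low and non-CL-side autumn number 3 was the highest autumn array. NR4A1 stood at −0.93, 1.28 and 1.51 and at −1.30, 1.53 and 2.14 in the summer horns and between −0.97 and −0.25 in autumn. SERTAD1 followed the same course over a range of only 0.95 on the log2 scale, and none of the 8 passed limma's adjusted season test on either side.

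**Figure D5:**
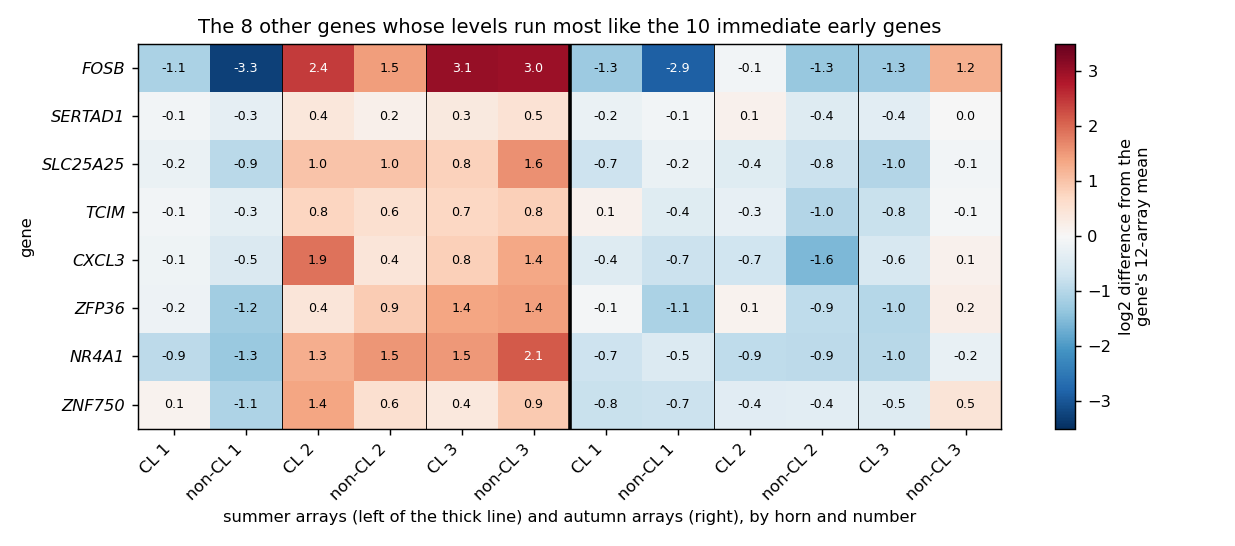
Deviation of the 8 most alike genes (rows) from their own 12-array mean on each array (columns), log2 units printed in the cells and shown by colour, on the colour scale used for the 10 immediate early genes. FOSB has the widest range, 6.33, and SERTAD1 the narrowest, 0.95, and the 4 columns of summer numbers 2 and 3 are positive in all 8 rows.

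A list of 65 further immediate early genes was looked up; 35 had a probe and 34 were measured, LIF being above background on no array. On the CL side 25 of the 34 had a season change above 0 (53.0% of all probes did), with a median of 0.43. On the non-CL side 30 of the 34 were above 0 (49.9% of all probes), with a median of 0.18. None passed limma's adjusted test on either side, and 4 and 1 had an unadjusted p under 0.05 and were higher, against 6.37% and 0.622% of all probes. Of the 6 brightest, CCN2, a matricellular relative of CCN1, had a CL-side season change of 0.15 ± 0.37 and a non-CL-side change of 0.52 ± 0.37 (SE). BTG1, an antiproliferative factor, had −0.10 ± 0.21 and 0.03 ± 0.21, GADD45A, a growth arrest gene, 0.62 ± 0.58 and 0.08 ± 0.58 with outlier spots missing on some arrays, and ID1, an inhibitor of differentiation factors, −0.43 ± 0.39 and 0.11 ± 0.39. NFKBIA, the inhibitor of NF-kappaB, had −0.13 ± 0.22 and 0.20 ± 0.22, and ID2 had 0.92 ± 0.37 and 0.04 ± 0.37. The largest CL-side changes of this list, chosen after their values were seen, were those of FOSB (2.34 ± 1.62), NR4A1 (1.49 ± 0.83) and EGR4 (1.41 ± 0.59), a relative of EGR1. Of 12 measured genes upstream of the response, such as kinases and transcription factors, 8 on the CL side and 7 on the non-CL side were above 0 (53.0% and 49.9% of all probes). Their medians were 0.05 and 0.03, and none had an unadjusted limma p under 0.05, against 9.92% and 1.12% of all probes.

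Markers of other cells were read on the same arrays, as the sum of signals relative to the array's 75th percentile. For 7 of 8 epithelial markers measured, the sum was 27.6 to 63.3 in CL-side summer, 27.1 to 32.5 in non-CL-side summer, 20.7 to 27.9 in CL-side autumn and 25.5 to 37.2 in non-CL-side autumn. For all 8 stromal markers it was 56.2 to 144, 126 to 137, 152 to 180 and 123 to 136 in the same order of groups. Between the seasons on the CL side, where the 10 genes were higher in summer, all 8 stromal markers were lower (median −1.08, 6 with an unadjusted limma p under 0.05) and 6 of 7 epithelial markers were higher (median 0.85, 3 with such a p). Of all probes in that comparison, 53.0% were above 0 and 9.92% had such a p. On the non-CL side 5 of 8 stromal markers were lower (median −0.02) and 3 of 7 epithelial markers higher (median −0.01), with no such p, and none of these markers passed the adjusted test. Of all probes on that side, 49.9% were above 0 and 1.12% had such a p. For 4 of 6 smooth muscle markers the sum was 6.24 to 51.4, 3.77 to 22.5, 4.65 to 46.5 and 3.0 to 26.3. CL-side summer number 2, the array with the highest mean deviation of the 10 genes, had the highest epithelial score (1.28, the mean log2 deviation of the markers) and the lowest stromal score (−1.41) of the 12 arrays, and a smooth muscle score of 2.09. The other arrays with high levels of the 10 genes, CL-side summer number 3 and non-CL-side summer numbers 2 and 3, had epithelial scores of −0.18, 0.19 and 0.12 and stromal scores of 0.17, 0.06 and 0.08. Their smooth muscle scores were −0.83, 1.21 and −0.28. The highest smooth muscle score, 2.35, was on CL-side autumn number 1, and non-CL-side autumn number 2 had 1.30. The mean deviation of the 10 genes on those autumn arrays was −0.47 and −1.20. For 5 of 8 leukocyte markers the sum was 0.881 to 1.97, 0.465 to 0.719, 0.583 to 0.643 and 0.385 to 0.587. The higher leukocyte sum of CL-side summer rests largely on 1 gene, S100A8. Its levels were −0.39, 0.42 and −1.13 in CL-side summer and −2.68, −2.19 and −2.62 in non-CL-side summer. For all 5 endothelial markers the sum was 1.77 to 2.51, 2.33 to 3.16, 1.90 to 2.49 and 2.24 to 2.45. Of the blood markers HBA was above background on no array, HBB failed the filter and ALAS2 was measured. Without CL-side summer number 2 the CL-side season median of the 10 genes was 1.02 with 9 of 10 above 0, and the part of tissue makeup in the other differences was not tested.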

How the data were processed

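RNA of 12 endometrium samples was hybridised singly to 1-colour Agilent arrays; per the labels, 400 ng of total RNA was labelled with Cy3. The deposited scanner files give the processed signal, a linear intensity that per the file headers was background-subtracted by Feature Extraction 9.5.1.1 (9.5 per the submitters' processing notes), and mean and background intensity, used as an alternative. A second deposited table holds the authors' own log2 values, whose direction and 75th percentile near 0 follow the scanner values; its column medians were −2.79 to −2.61, and its treatment of low signals stays unknown.

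Processed signals were divided by the array's 75th percentile, floored at −7.28 (log2; 2.06% of kept values), and 466 outlier-flagged values were set to missing. A filter kept the 12404 probes that exceeded background (the scanner's flag) on every array of some group and removed 2804. Names came from the files or, through accessions, gene IDs and synonyms, the ARS-UCD2.0 gene table. Tests used limma 3.58.1 in R 4.3.3 with Benjamini-Hochberg adjustment over all kept probes, 2-sided, threshold 0.05, in 1 fit of 4 group means (8 residual degrees of freedom), or on horn means (4); code was tested on simulated data. The number of arrays limits the precision.

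Labels give no pairing. Over 12272 probes, deviations of same-numbered samples correlated at 0.14 to 0.50 between horns of a season and 0.11 to 0.35 between seasons of a side, best with the own number in 6 of 6 each, so the numbers were taken to pair the samples and the number was fitted as a block. The 10 genes, the other lists and the tests were chosen with earlier results of these data known. Named besides the 10 were the 6 brightest genes of the further immediate early list and the 8 most and 3 least alike genes. The 2 brightest of each stress list were named too. EGR4 and S100A8 were chosen after their values were seen, and LIF, HBA, HBB, ALAS2, HSPA1A and CEBPD are named for their status in a list alone. Alternatives were normexp background correction, quantile normalization, the deposited log2 table, no filter, slide, the block and leaving out arrays; leaving out both horns of a number and slide 2 alone were added after seeing the data.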

Additional observations from a re-analysis of the deposited data

How the results depend on the processing

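Over 780 values of single genes under the alternatives, 735 kept their direction and their side of the adjusted threshold, 43 changed direction and 2 newly passed it. Those 2 were ATF3 and CCN1 over both horns without summer number 1, in a fit added after seeing the data. With the replicate block no probe passed the adjusted test in any comparison and no call changed. The count of all probes passing was 0 except for 1 in the non-CL-side season comparison on slide 1 alone and, with single samples or horn pairs left out, 0 to 7 for season on the CL side, 0 to 2 over both horns, 0 to 1 for side in summer, 0 to 6 for side in autumn and 0 to 1 for season by side. Side in autumn turned with normexp correction for ATF3 (0.030) and IER2 (0.025), with quantile normalization for IER2 (0.023), in the authors' deposited table for EGR1 (0.39) and SOCS3 (0.34), on slide 1 alone for ATF3 (0.067) and IER2 (0.43) and on slide 2 alone for JUN (−0.0066). In that table the median r of the 10 genes over arrays was 0.71. The cause was not tested.

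With samples left out, the season change of JUN ranged from −0.24 to 0.94 on the CL side, −0.15 to 1.26 on the non-CL side and −0.17 to 1.10 over both horns, and that of SOCS3 on the non-CL side from −0.016 to 0.47. Over both horns ATF3 ranged from 1.71 to 3.65 and CCN1 from 1.38 to 3.17. For side in summer the ranges were −0.49 to 2.23 (FOS), −0.79 to 0.88 (JUN), −0.24 to 0.54 (EGR1), −0.13 to 2.38 (ATF3), −0.23 to 1.37 (NR4A2), −0.20 to 0.84 (IER2), −0.24 to 0.95 (DUSP1), −0.028 to 0.91 (SOCS3) and −0.70 to 1.67 (CCN1). For side in autumn they were −0.21 to 0.58 (JUN), −0.46 to 0.040 (EGR1), −0.53 to 0.41 (ATF3), −0.47 to 0.057 (NR4A2) and −0.26 to 0.37 (IER2). A group left with 2 samples is assumed to vary like the others. EGR1 and SOCS3, the dimmest of the 10, are the values that signal over background limits most.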

Other observations

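Stress lists of other kinds were read on the same arrays. Of 10 measured heat shock and chaperone genes, 9 had a season change (HSPA1A had outlier spots on most arrays), and its median was −0.0014 on the CL side and −0.029 on the non-CL side, with HSPA8, the constitutive cytosolic chaperone, at −0.27 ± 0.15 and −0.20 ± 0.15 and HSP90AA1 at 0.04 ± 0.15 and −0.03 ± 0.15 (SE, limma). Of 10 measured hypoxia genes the medians were −0.02 and 0.07, with ADM, the vasodilator adrenomedullin, at −0.78 ± 0.30 and −0.20 ± 0.30 and SLC2A1, a glucose transporter, at 0.46 ± 0.50 and 0.38 ± 0.50. Of 7 measured glucocorticoid-responsive genes, of which CEBPD is also a listed immediate early gene, the medians were 0.34 and 0.42, with ERRFI1, an inhibitor of epidermal growth factor receptor signalling, at −0.04 ± 0.35 and 0.50 ± 0.35 and ZBTB16 at −0.57 ± 0.40 and −0.21 ± 0.40. No gene of these lists passed limma's adjusted test in any comparison, where 0.0% of all probes passed.

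The mean deviation of the glucocorticoid list by array was −0.17, 0.48 and 0.30 in CL-side summer and −0.43, 0.35 and 0.40 in non-CL-side summer. In autumn it was −0.47, 0.02 and 0.03 on the CL side and −0.28, −0.49 and 0.25 on the non-CL side. As in the 10 immediate early genes, summer numbers 2 and 3 were above 0 and summer number 1 below 0 in both horns. That order was not shared by the whole list: ERRFI1 and ZBTB16, its 2 brightest genes, were lowest on CL-side summer number 2 (0.09 and −1.48). Their r with the mean course of the 10 genes over the 12 arrays was 0.16 and −0.53, and that of the other listed genes, which include CEBPD, was 0.54 to 0.87. The heat shock list ran from −0.20 to 0.33 and the hypoxia list from −0.27 to 0.27, without that order.

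The genes running most opposite to the 10 over the 12 arrays, of 5230 compared, were BRIX1, a ribosome assembly factor (r = −0.949), PPP1R8, a nuclear phosphatase inhibitor (r = −0.946), and PHYH, a peroxisomal enzyme (r = −0.918). Their ranges were small, 0.42, 0.47 and 0.48 on the log2 scale, and 38 genes had an r below −0.8.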
